A study of Mus musculus with 8 samples.

Results

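Oligodendrocytes wrap axons of the central nervous system in myelin, and they arise throughout life from dividing precursor cells. The genes described here are 32 myelin and oligodendrocyte lineage genes, chosen by name to run from the precursor stage to the myelinating stage. Their levels were measured in bulk hippocampal RNA of 8 mice. In 4 of them a knockout of Nr2f1 was heterozygous (Nr2f1 het) and 4 were wild type (WT), with 1 library from each animal. All 32 were among the 37310 genes of the count table, and all 32 were among the 17913 genes with enough counts to be tested. Animals of both genotypes were B6.129 F1 hybrids aged 3 months, with no other allele or treatment in the labels. How the Nr2f1 allele was made was not given in the sources used here, so the labels do not say in which cells it was lost. The comparison asks how hippocampal RNA differs after loss of one allele of Nr2f1, which encodes an orphan nuclear receptor active in cortical and hippocampal development.

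As background, precursors carry the receptor Pdgfra and the proteoglycan Cspg4 (NG2), respond to platelet-derived growth factor and divide. Cells that commit to differentiation pass through a short stage with Gpr17 and then Enpp6 and Bcas1, after which Myrf and Sox10 together switch on the genes of myelin. Mature cells make large amounts of a few membrane proteins, the galactolipids of the sheath and the connexins that couple them to astrocytes. The hippocampus holds myelinated axons mainly in the alveus, the fimbria and the perforant path.

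Some facts of the libraries come before the results. Libraries held 58717305 to 90043971 gene counts, and a count of 0 (which allows up to 3 counts) corresponds to 0.0332 to 0.051 CPM, read counts scaled to the TMM-normalised library size. All animals were labelled male, yet Xist, which is made from the inactive X chromosome of females, was at 463.2 to 601.4 CPM. Across all 8 libraries, 14 genes on the Y chromosome had 3 counts, so the data go against the labelled sex in every library. Nr2f1 itself had 32.4, 31.0, 33.5 and 28.5 CPM in Nr2f1 het libraries 1 to 4, and 53.4, 49.5, 54.1 and 51.6 CPM in WT libraries 1 to 4. The log2 fold change of Nr2f1 was -0.73, standard error (SE) 0.0511 (edgeR quasi-likelihood test, Benjamini-Hochberg adjusted p = 7.32e-05), which goes with the genotype labels. The ratio of spike-in ERCC-00130 to ERCC-00002, synthetic RNAs added in a fixed proportion, was 1.2 to 1.28 in odd-numbered libraries and 0.165 to 0.186 in even-numbered ones. The spike-in mix therefore alternated with the replicate number in both genotypes, and the genotype difference is also given within each mix.

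None of the 32 genes passed the test between genotypes, while 535 of all 17913 tested genes did (2.99%; 2.62% higher in Nr2f1 het and 0.368% lower; edgeR adjusted p below 0.05). At an unadjusted p below 0.05, 1 of the 32 passed, against 17.2% of all genes. The DESeq2 Wald test called none of the 32 after adjustment, against 6.7% of all genes, with 2 at an unadjusted p below 0.05 (17.4% of all genes). The limma-voom fit called none of the 32, against 3.51% of all genes, again with 2 at an unadjusted p below 0.05 (17.5% of all genes). For none of the 32 did the 4 Nr2f1 het values lie wholly outside the 4 WT values, which 10.6% of all genes did (6.99% with the Nr2f1 het values above, 3.58% below).

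The fold changes were nevertheless mostly on the positive side. The log2 fold change of Nr2f1 het over WT was above 0 for 26 of the 32 genes, against 47.9% of all genes, and its median was 0.081, against -0.006 over all genes. It ran from -0.16 for Cspg4 to 0.35 for Apod. These genes varied more between WT animals than most genes did. Their median SD of log2 CPM was 0.12 within Nr2f1 het and 0.237 within WT, against 0.099 and 0.092 over all genes. The median SE of their log2 fold changes was 0.122, against 0.07 over all genes, so differences of this size were within the error for most of them. A p-value that misses the threshold leaves the size of each difference uncertain by that error and does not show that the genotypes were alike. In bulk RNA, a change in the number of cells of a type and a change in RNA per cell cannot be told apart.

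**Figure D1:**
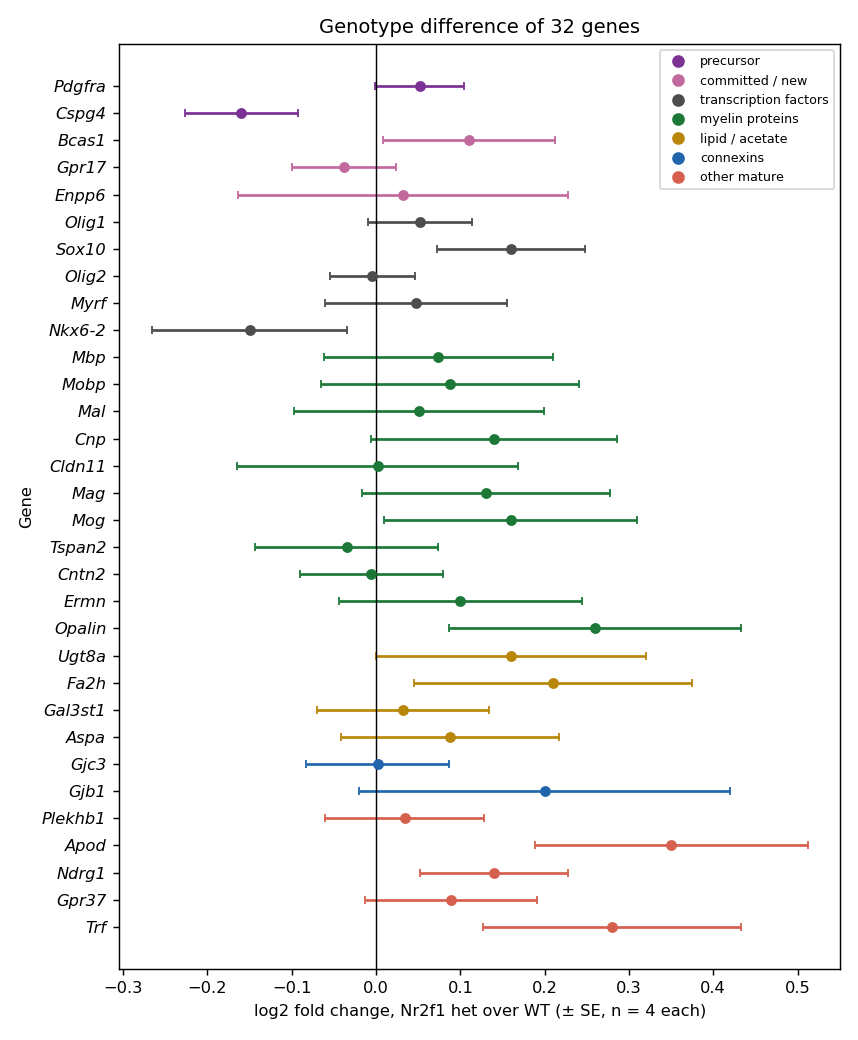
Log2 fold change of Nr2f1 het over WT for the 32 genes, with points at the estimate and bars of 1 SE (n = 4 libraries in each genotype), coloured by stage or role. Estimates run from -0.16 for Cspg4 to 0.35 for Apod, 26 of the 32 lie above 0, and none passed an adjusted p of 0.05.

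The precursor genes Pdgfra and Cspg4 differed in the sign of their fold changes, and neither passed the test over all 8 libraries. Pdgfra, the receptor for platelet-derived growth factor A on precursors, had 78.8, 80.3, 91.5 and 77.6 CPM in Nr2f1 het libraries and 80.5, 76.9, 75.9 and 83.5 CPM in WT libraries. Nr2f1 het library 3 was the highest of the 8, and the other values were mixed between genotypes. The log2 fold change of Pdgfra was 0.052 with an SE of 0.0527 (edgeR adjusted p = 0.668). Cspg4, the NG2 proteoglycan of precursors and of the pericytes on capillaries, had 23.6, 24.7, 29.8 and 25.3 CPM in Nr2f1 het libraries and 27.5, 28.5, 29.4 and 30.7 CPM in WT libraries. Nr2f1 het libraries 1, 2 and 4 lay below every WT library, and library 3 lay inside the WT values. Its log2 fold change was -0.16 with an SE of 0.0671, the lowest p of the 32 genes at 0.0306 unadjusted and 0.228 adjusted (edgeR). Without Nr2f1 het library 3 it was -0.24 and passed the test (edgeR adjusted p = 0.0377), in a fit that called 315 genes in all. That fit leaves out the only Nr2f1 het value inside the WT values. No other fit with a single library left out called a member.

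None of the 3 genes of committed and newly formed oligodendrocytes passed the test over all 8 libraries. Gpr17, a receptor that holds committed precursors back from maturing, had 60.5, 60.4, 72.0 and 56.7 CPM in Nr2f1 het libraries and 64.1, 64.9, 64.8 and 62.5 CPM in WT libraries. The WT values were close together and lay inside the Nr2f1 het values, with Nr2f1 het library 3 again the highest. The log2 fold change of Gpr17 was -0.038 with an SE of 0.062 (edgeR adjusted p = 0.816). Bcas1, a membrane-associated protein of cells that have just begun to myelinate, had 121.8, 120.3, 112.6 and 101.8 CPM in Nr2f1 het libraries and 97.4, 122.4, 89.7 and 112.7 CPM in WT libraries. The lowest of the 8 were WT libraries 1 and 3, WT library 2 was just above the highest Nr2f1 het value, and WT library 4 lay among them. For Bcas1 the log2 fold change was 0.11 with an SE of 0.102 (edgeR adjusted p = 0.642). Enpp6, a choline-releasing phosphodiesterase used as a marker of newly formed oligodendrocytes, had 4.86, 5.19, 4.57 and 4.66 CPM in Nr2f1 het libraries and 3.17, 6.58, 3.76 and 5.12 CPM in WT libraries. Its WT values differed 2.07-fold between the lowest and the highest library, the widest WT spread among the 32 genes, while its Nr2f1 het values differed 1.14-fold.

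Of the 5 transcription factors, 3 had log2 fold changes above 0 and none passed the test. Sox10, which drives the lineage from specification through myelination, had 41.5, 45.7, 39.0 and 38.9 CPM in Nr2f1 het libraries and 33.4, 42.5, 32.7 and 38.9 CPM in WT libraries. Again WT libraries 1 and 3 were below all others, WT library 4 was level with the lowest Nr2f1 het library, and WT library 2 lay within the Nr2f1 het values. Its log2 fold change was 0.16 with an SE of 0.0877 (edgeR adjusted p = 0.396). Olig1, a basic helix-loop-helix factor of the whole lineage, had 101.2, 98.7, 107.3 and 97.2 CPM in Nr2f1 het libraries and 93.9, 109.1, 87.2 and 99.5 CPM in WT libraries. The groups overlapped, with WT library 2 the highest and WT libraries 3 and 1 the lowest. Its partner Olig2, needed to specify the lineage, averaged 25.8 ± 0.751 CPM in Nr2f1 het and 25.9 ± 1.68 CPM in WT (SD, n = 4 each). Myrf, the membrane-bound factor that switches on myelin genes, averaged 67.2 ± 3.56 CPM in Nr2f1 het and 65.0 ± 10.6 CPM in WT (SD, n = 4 each). Nkx6-2, a homeodomain factor of mature oligodendrocytes, had 6.00, 6.56, 5.64 and 5.66 CPM in Nr2f1 het libraries and 6.32, 7.68, 5.15 and 7.26 CPM in WT libraries. The highest of the 8 were WT libraries 2 and 4, and the lowest was WT library 3. For Nkx6-2 the log2 fold change was -0.15 with an SE of 0.116 (edgeR adjusted p = 0.544).

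The 11 myelin proteins include the 3 most abundant of these genes per length of transcript, Mbp, Mobp and Mal, and in all 11 the WT values fell into a high and a low pair. Mbp, myelin basic protein, which seals the cytoplasmic faces of the sheath, had 1944.5, 2107.3, 1963.7 and 1755.0 CPM in Nr2f1 het libraries and 1627.4, 2209.1, 1476.1 and 2068.9 CPM in WT libraries. Against every Nr2f1 het library WT libraries 1 and 3 were lower and WT library 2 was higher, and WT library 4 was above 3 of them. For Mbp the log2 fold change was 0.074 with an SE of 0.136 (edgeR adjusted p = 0.842). Mobp, a small cytoplasmic myelin protein, and Mal, a raft proteolipid of myelin, are shown because their differences between mixes had the lowest p, and so were chosen after their values were seen. Mobp had 629.6, 683.3, 630.3 and 576.0 CPM in Nr2f1 het libraries and 511.7, 699.8, 459.2 and 699.5 CPM in WT libraries. Mal had 195.1, 216.4, 200.0 and 184.2 CPM in Nr2f1 het libraries and 159.8, 222.9, 155.2 and 229.7 CPM in WT libraries. In both genes the 4 Nr2f1 het values lay between the low WT pair, libraries 1 and 3, and the high WT pair, libraries 2 and 4.

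The other myelin proteins had the same low pair of WT libraries. Cnp, the cyclic nucleotide phosphodiesterase of uncompacted myelin, averaged 236.6 ± 23.9 CPM in Nr2f1 het and 214.8 ± 41.2 CPM in WT. Mag, an adhesion molecule facing the axon, averaged 137.1 ± 14.1 CPM in Nr2f1 het and 125.1 ± 23.9 CPM in WT, and Mog, on the outer face of the sheath, 48.8 ± 5.44 CPM in Nr2f1 het and 43.5 ± 8.58 CPM in WT. Cldn11, which forms the tight junctions between myelin layers, averaged 101.4 ± 8.80 CPM in Nr2f1 het and 101.1 ± 23.0 CPM in WT (SD, n = 4 each throughout). For these genes the SD within WT was the larger one, and for Cldn11 the means nearly coincided while the WT libraries ran from 79.1 to 122.0 CPM. Opalin, a glycoprotein of the paranodal loops, had the highest fold change of the class, a log2 value of 0.26 with an SE of 0.173 (edgeR adjusted p = 0.499). Ermn, a cytoskeletal protein of late oligodendrocytes, had a log2 fold change of 0.10. Tspan2, a tetraspanin, and Cntn2, an adhesion molecule of the juxtaparanode that neurons also make, had -0.035 and -0.0056. Summed over the 11 myelin proteins, the level was 3607.3, 3955.3, 3587.2 and 3296.5 CPM in Nr2f1 het libraries and 2998.3, 4069.0, 2751.8 and 3893.9 CPM in WT libraries, so the sums overlapped.

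**Figure D2:**
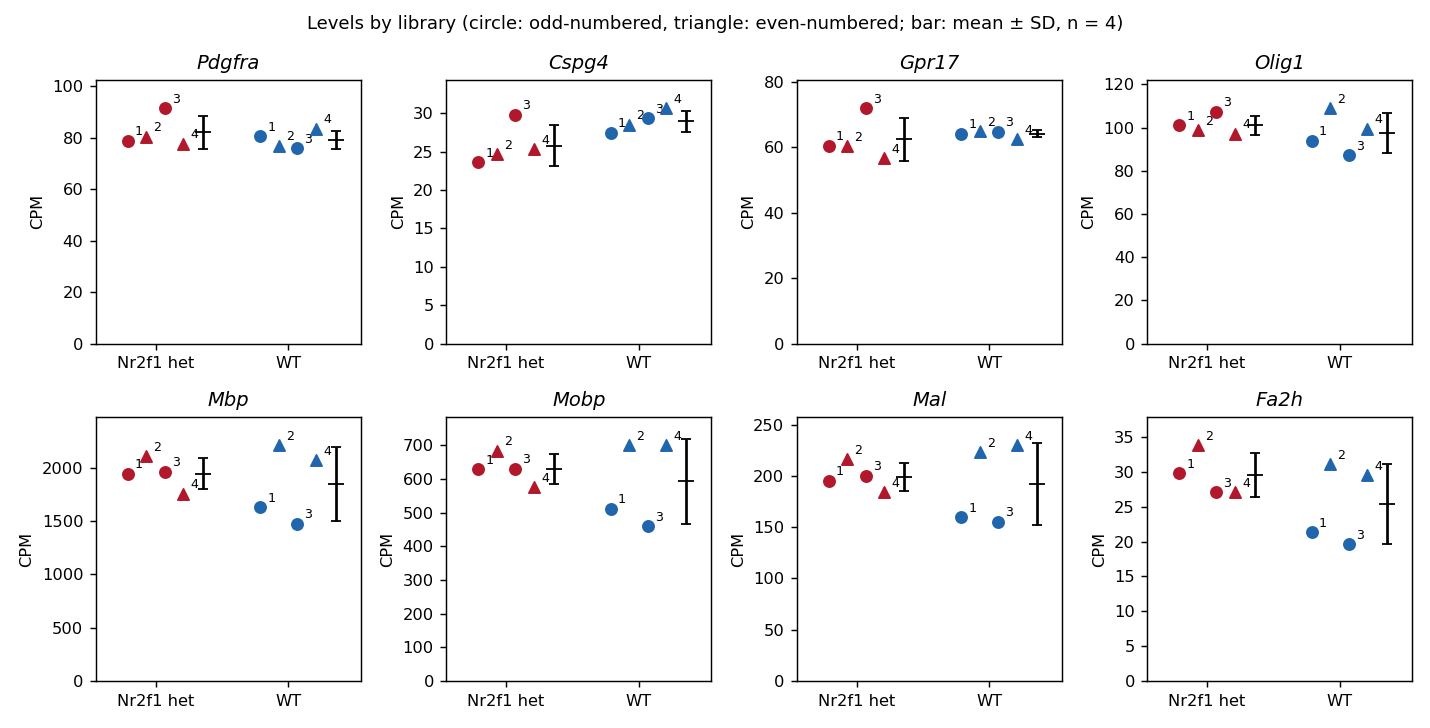
CPM of 8 genes in each library of Nr2f1 het (left) and WT (right), with circles for odd-numbered and triangles for even-numbered libraries, and bars at the mean ± SD of 4. Mbp, Mobp, Mal and Fa2h have WT libraries 1 and 3 below all the others, while Pdgfra, Cspg4 and Gpr17 do not.

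Enzymes that make myelin lipid or supply acetate for it all had log2 fold changes above 0, and none passed the test. Fa2h, which hydroxylates the fatty acids of myelin galactolipids, had 29.8, 33.8, 27.1 and 27.1 CPM in Nr2f1 het libraries and 21.3, 31.1, 19.6 and 29.5 CPM in WT libraries. The lowest of the 8 were WT libraries 1 and 3, and WT libraries 2 and 4 lay among the Nr2f1 het values. Its log2 fold change was 0.21 with an SE of 0.165 (edgeR adjusted p = 0.587). Ugt8a, which makes galactosylceramide, averaged 43.5 ± 7.42 CPM in Nr2f1 het and 38.6 ± 6.45 CPM in WT. Gal3st1, which sulfates that lipid to sulfatide, averaged 8.62 ± 0.668 CPM in Nr2f1 het and 8.37 ± 1.25 CPM in WT, and Aspa, which frees acetate from N-acetylaspartate, 10.3 ± 1.72 CPM in Nr2f1 het and 9.57 ± 1.34 CPM in WT (SD, n = 4 each throughout).

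The connexins gave one of the flattest and one of the noisiest values. Gjc3, a connexin of myelinating glia, had 39.5, 39.4, 37.6 and 35.0 CPM in Nr2f1 het libraries and 33.8, 41.3, 33.3 and 42.6 CPM in WT libraries. All 4 Nr2f1 het values lay between the low WT pair, libraries 1 and 3, and the high pair, libraries 2 and 4, and the log2 fold change was 0.0018 with an SE of 0.0844 (edgeR adjusted p = 0.995). Gjb1, the other oligodendrocyte connexin, averaged 7.73 ± 1.46 CPM in Nr2f1 het and 6.63 ± 1.93 CPM in WT (SD, n = 4 each), and its SE of 0.22 was the largest of the 32.

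The remaining genes of mature oligodendrocytes all had log2 fold changes above 0. Apod, a secreted lipid-binding lipocalin that fibroblasts of the meninges and vessels also make, had 74.5, 87.6, 102.4 and 73.5 CPM in Nr2f1 het libraries and 58.3, 69.8, 55.1 and 81.6 CPM in WT libraries. WT library 4 lay among the Nr2f1 het values and the other 3 WT libraries below them. For Apod the log2 fold change was 0.35 with an SE of 0.162 (edgeR adjusted p = 0.33). Trf, the iron carrier transferrin, which choroid plexus also makes, had 6.54, 6.66, 5.61 and 5.61 CPM in Nr2f1 het libraries and 4.15, 6.36, 3.73 and 5.62 CPM in WT libraries. Lowest were WT libraries 1 and 3, and the other WT values lay within those of Nr2f1 het. For Trf the log2 fold change was 0.28 with an SE of 0.153 (edgeR adjusted p = 0.391), and 2108 of its 3320 exonic bases are shared with another annotated gene on the same strand, Gm20425, so its count is uncertain. Plekhb1, a membrane-binding adaptor, had 236.0, 254.8, 246.6 and 222.9 CPM in Nr2f1 het libraries and 223.6, 262.9, 193.9 and 257.7 CPM in WT libraries, with WT library 3 the lowest and WT libraries 2 and 4 the highest. Ndrg1, a stress- and differentiation-linked cytoplasmic protein, averaged 87.6 ± 4.72 CPM in Nr2f1 het and 79.3 ± 10.5 CPM in WT. Gpr37, a receptor that restrains late differentiation in mice, averaged 62.5 ± 7.46 CPM in Nr2f1 het and 58.7 ± 6.57 CPM in WT (SD, n = 4 each).

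Levels per length of transcript ordered these genes over a wide range. On the scale of CPM per kilobase of exon, Mbp was highest at 229.4 ± 17.1 in Nr2f1 het and 217.9 ± 41.3 in WT (SD, n = 4 each). Mobp followed at 92.0 ± 6.40 in Nr2f1 het and 86.5 ± 18.3 in WT, then Mal at 71.6 ± 4.82 in Nr2f1 het and 69.1 ± 14.4 in WT. Mobp and Mal overlapped within their SDs in WT but not in Nr2f1 het, and Mbp stood above both beyond its SD. Plekhb1, Cnp and Cldn11 came next, at 64.7, 65.0 and 54.2 in Nr2f1 het and 63.2, 59 and 54.1 in WT, and neighbours in that order overlapped within their SDs. Olig1, at 46.8 ± 2.06 in Nr2f1 het and 45.1 ± 4.28 in WT, was the most abundant transcription factor. The precursor genes lay lower, Pdgfra at 8.19 in Nr2f1 het and 7.90 in WT, and Cspg4 at 2.17 in Nr2f1 het and 2.43 in WT. Enpp6 was the lowest of the 32, at 0.752 in Nr2f1 het and 0.726 in WT. Exon lengths came from an annotation on a later genome build than the counts, so these levels are approximate.

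Most of the spread among the 32 genes lay between WT libraries. WT libraries 1 and 3 were both below WT libraries 2 and 4 for 29 of the 32, against 21.2% of all genes. Pdgfra, Cspg4 and Gpr17, the precursor and early committed genes, were the 3 exceptions. Nr2f1 het libraries 1 and 3 were both below libraries 2 and 4 for 1 of the 32, against 14.2% of all genes. WT library 3 was the lowest of the 8 for 23 of the 32 genes and WT library 1 for 7. The highest library was Nr2f1 het 2 for 12 genes, WT 2 for 11 and WT 4 for 5. The ratio of highest to lowest library was larger in WT than in Nr2f1 het for 26 of the 32, against 46.6% of all genes. For 15 of the 32 the 4 Nr2f1 het values lay inside the WT range, against 14.1% of all genes. The median gene of the 32 deviated from its mean over the 8 libraries by 0.067, 0.165, 0.005 and -0.064 on the log2 scale in Nr2f1 het libraries 1 to 4, and by -0.221, 0.189, -0.284 and 0.105 in WT libraries 1 to 4. The median over all genes stayed between 0 and 0.011 in each library.

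**Figure D3:**
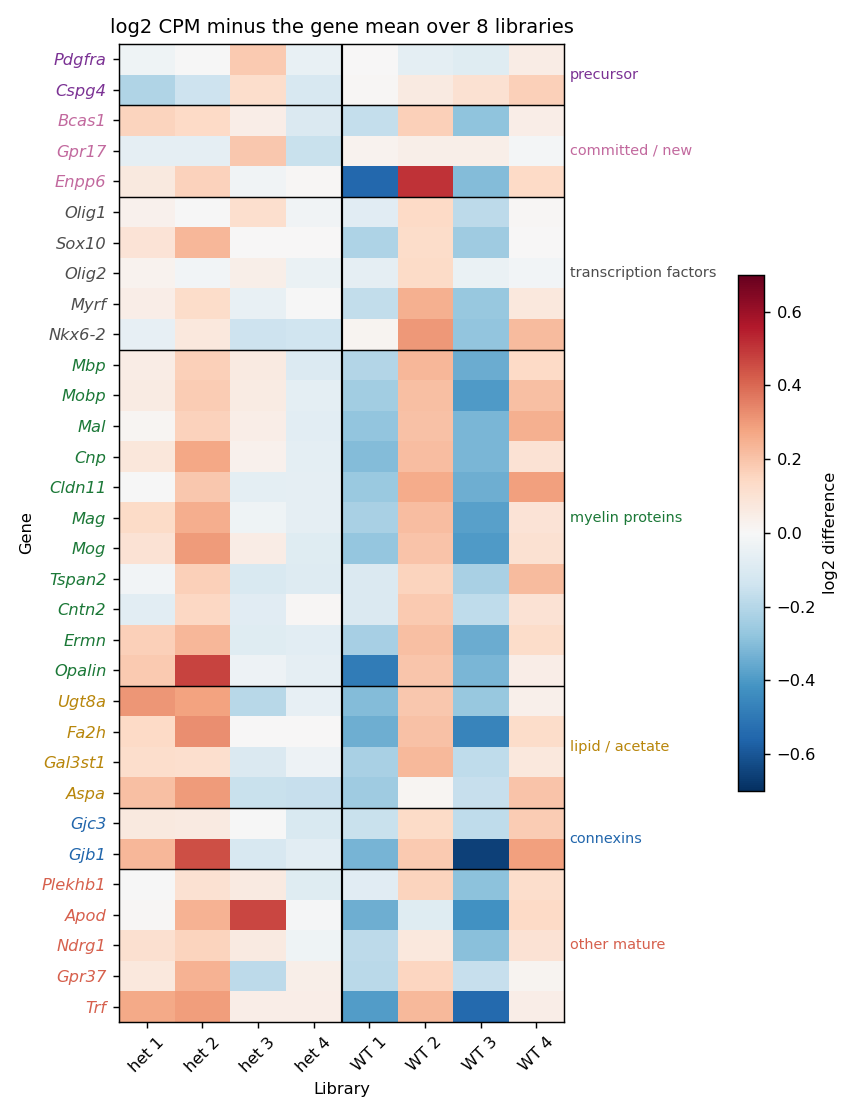
Log2 CPM minus the mean of each gene over the 8 libraries, with the 32 genes down the page by stage, Nr2f1 het libraries on the left and WT libraries on the right. WT libraries 1 and 3 are both below WT libraries 2 and 4 in 29 of the 32 genes, and Nr2f1 het libraries do not show that split.

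WT libraries 1 and 3 are the odd-numbered ones, which carried one spike-in mix, so the genotypes were also compared within each mix. In the odd-numbered libraries alone, with 2 of each genotype, the log2 fold change was above 0 for 31 of the 32 genes (50.8% of all genes), with a median of 0.312 (all genes 0.004). In that fit 11 of the 32 rose, at an edgeR adjusted p below 0.05, against 3.09% of all genes called and 2.90% called higher. They were the myelin proteins Cnp, Mal, Mobp, Mag, Cldn11, Mbp and Mog, with Ndrg1, Bcas1, Fa2h and Sox10. The log2 fold change in those libraries was 0.34 for Mbp (edgeR adjusted p = 0.0209) and 0.38 for Cnp (edgeR adjusted p = 0.00614). In the even-numbered libraries alone it was above 0 for 7 of the 32 (48.3% of all genes), with a median of -0.082 (all genes -0.004). None of the 32 passed there, against 0.429% of all genes, and 4 had an unadjusted p below 0.05, against 8.5% of all genes. These were Cspg4, Cldn11, Nkx6-2 and Gjc3, each lower in Nr2f1 het, as were 2.77% of all genes at that p. There Mbp had a log2 fold change of -0.15 (edgeR adjusted p = 0.782) and Cnp -0.052 (edgeR adjusted p = 0.965).

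The difference between the mixes was then tested itself, as the log2 fold change in odd-numbered minus that in even-numbered libraries. It was above 0 for all 32 genes, and its median was 0.357, against -0.001 over all genes. In the separate fits of each mix, the odd-numbered fold change was above the even-numbered one for all 32 and for 51.6% of all genes. None of the 32 passed after adjustment over all genes, and no gene of the 17913 did (0.0%). At an unadjusted p below 0.05, 17 of the 32 passed, against 5.12% of all genes. This contrast uses the same WT libraries as the split of WT libraries 1 and 3 above, so it is no separate evidence. The 32 genes were measured in the same libraries and moved together, so they are not independent of each other. Mal had the lowest p, with a difference of 0.50 and an SE of 0.0953 (edgeR unadjusted p = 0.000302, adjusted p = 0.246). Mobp followed with 0.53 and an SE of 0.11 (edgeR unadjusted p = 0.000802, adjusted p = 0.378). Pdgfra had a difference of 0.15 with an SE of 0.102 (edgeR unadjusted p = 0.176) and Cspg4 0.16 with an SE of 0.137 (edgeR unadjusted p = 0.263). Without WT libraries 1 and 3 the median log2 fold change over the 32 genes was -0.083. The mix and the libraries that happened to carry it cannot be told apart.

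**Figure D4:**
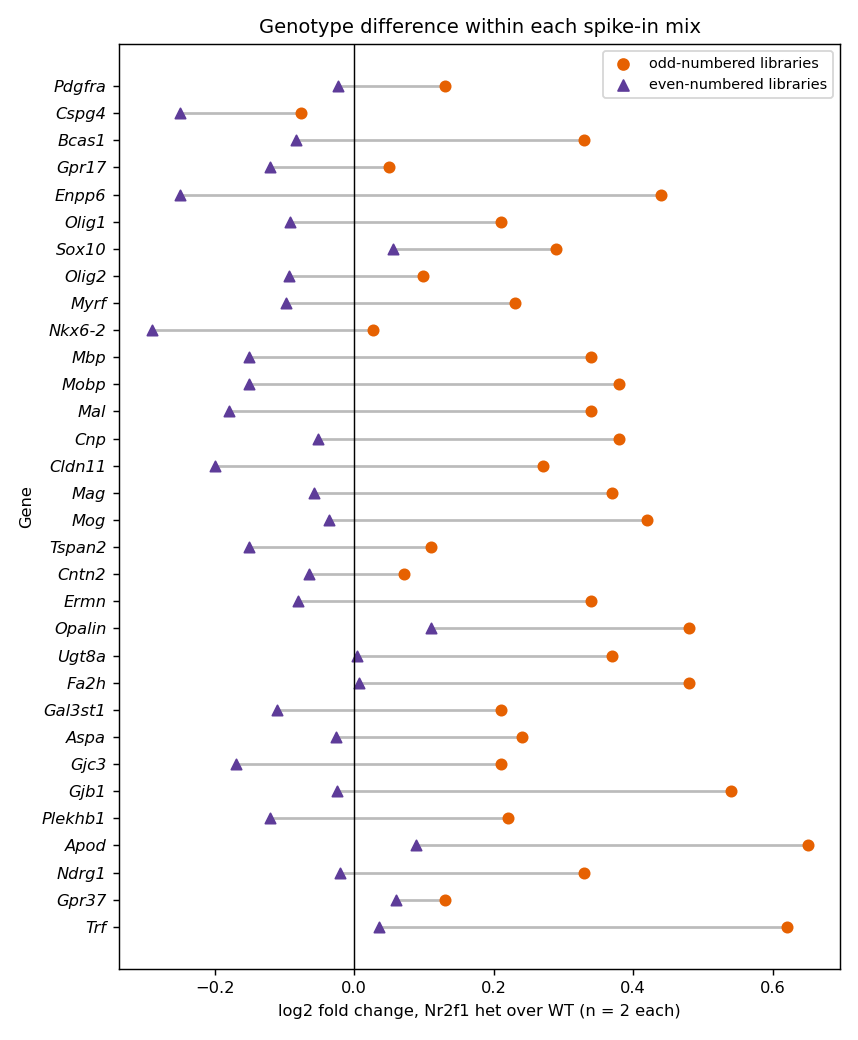
Log2 fold change of Nr2f1 het over WT within odd-numbered (circles) and even-numbered (triangles) libraries, 2 of each genotype in each, for the 32 genes. The circle lies to the right of the triangle in all 32, with a median of 0.312 for circles and -0.082 for triangles, and no difference between the mixes passed after adjustment.

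Sums and medians by stage were read next. The 2 precursor genes together had 102.4, 105.0, 121.3 and 102.9 CPM in Nr2f1 het libraries and 108.0, 105.3, 105.3 and 114.2 CPM in WT libraries. WT libraries 1 and 3 were not set apart in that sum. Median log2 fold changes in odd-numbered and even-numbered libraries were 0.029 and -0.13 for the precursor genes, 0.33 and -0.12 for the committed and newly formed genes, 0.21 and -0.094 for the transcription factors, and 0.34 and -0.081 for the myelin proteins. The lipid and acetate enzymes had 0.30 and -0.011, the connexins 0.38 and -0.099, and the other mature genes 0.33 and 0.035.

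Promoter sequences of these genes are shown because the members of the mature stage moved together across libraries while both precursor genes did not. A search was made in windows of 300 bases, 250 before to 50 after each annotated start (RefSeq, GRCm38.p6), which were held for 23 of the 32 genes as 32 windows. The letters ACAAAG or ACAATG, bound by SOX factors, were in 46.9% of those windows and in 28.6% of all 32851 windows, counting both strands. The letters CTGGCAC or CTGGTAC, bound by MYRF, were in 15.6% of those windows and in 7.1% of all windows. The E-box CAGCTG was in 9.38% against 16.3% of all windows, and TATAAA in 9.38% against 13.6%. Some genes have several windows, and those of Mag and of Gal3st1 overlap in part, so a site there was counted more than once. Of the 23 genes 12 held the SOX letters and 4 held the MYRF letters, Mag, Cnp, Mog and Opalin. The share per gene over all genes was not worked out, so these gene counts have no background beside them. A match describes letters in a window and shows no binding. Printed below, 5′ to 3′ on the strand of the gene, are the windows of the 3 genes with both kinds of letters in the same window (Mag, Cnp and Opalin), of Mobp with the most SOX letters, and of both precursor genes, which held neither. They lie at chr7:30914814-30915113 on the minus strand for Mag, at chr11:100574689-100574988 on the plus strand for Cnp and at chr19:41077064-41077363 on the minus strand for Opalin. Mobp lies at chr9:120149492-120149791, Pdgfra at chr5:75152001-75152300 and Cspg4 at chr9:56864854-56865153, all on the plus strand. Capitals mark the SOX and MYRF letters on either strand.
Mag: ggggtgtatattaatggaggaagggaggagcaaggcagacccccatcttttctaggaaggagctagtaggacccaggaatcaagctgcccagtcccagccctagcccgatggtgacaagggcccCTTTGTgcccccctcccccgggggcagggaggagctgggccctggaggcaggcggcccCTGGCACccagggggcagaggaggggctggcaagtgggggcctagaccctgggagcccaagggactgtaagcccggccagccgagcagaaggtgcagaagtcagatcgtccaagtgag
Cnp: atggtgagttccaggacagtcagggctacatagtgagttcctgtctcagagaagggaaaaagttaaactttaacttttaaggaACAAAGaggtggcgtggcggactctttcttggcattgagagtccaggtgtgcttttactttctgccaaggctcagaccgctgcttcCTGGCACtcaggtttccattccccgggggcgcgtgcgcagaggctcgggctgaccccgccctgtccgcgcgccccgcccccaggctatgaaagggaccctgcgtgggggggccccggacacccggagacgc
Opalin: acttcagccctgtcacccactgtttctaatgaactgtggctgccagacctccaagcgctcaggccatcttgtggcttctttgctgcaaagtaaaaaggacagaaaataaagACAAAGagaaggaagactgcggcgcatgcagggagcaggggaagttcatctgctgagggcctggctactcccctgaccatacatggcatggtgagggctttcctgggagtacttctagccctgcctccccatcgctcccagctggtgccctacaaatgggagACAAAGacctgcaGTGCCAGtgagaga
Mobp: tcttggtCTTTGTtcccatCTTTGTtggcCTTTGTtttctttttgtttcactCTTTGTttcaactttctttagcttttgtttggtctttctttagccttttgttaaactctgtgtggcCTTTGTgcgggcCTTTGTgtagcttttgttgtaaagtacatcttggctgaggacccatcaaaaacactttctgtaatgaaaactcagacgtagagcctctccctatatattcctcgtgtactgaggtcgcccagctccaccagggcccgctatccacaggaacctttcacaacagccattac
Pdgfra: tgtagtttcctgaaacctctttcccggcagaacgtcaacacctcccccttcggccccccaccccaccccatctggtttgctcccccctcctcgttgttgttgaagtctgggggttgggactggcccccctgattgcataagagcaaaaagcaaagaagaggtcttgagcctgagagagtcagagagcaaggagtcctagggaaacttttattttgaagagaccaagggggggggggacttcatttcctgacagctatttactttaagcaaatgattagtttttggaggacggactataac
Cspg4: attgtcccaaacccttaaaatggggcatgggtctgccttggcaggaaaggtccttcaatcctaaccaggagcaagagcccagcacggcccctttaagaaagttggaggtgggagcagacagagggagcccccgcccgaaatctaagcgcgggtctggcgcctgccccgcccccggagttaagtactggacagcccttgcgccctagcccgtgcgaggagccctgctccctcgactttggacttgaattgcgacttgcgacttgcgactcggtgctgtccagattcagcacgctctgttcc

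Mag has 3 annotated starts. In the window printed, its SOX letters began 126 bases before the start and its MYRF letters 68 bases before. A second window held the same letters at 67 and 9 bases before its own start, and the third held none. In Cnp they lay 167 and 81 bases before the start. Opalin held SOX letters on both sides of the start, at 139 bases before and 24 after, with MYRF letters at 37 bases after it. The Mobp window held SOX letters at 6 places, all before the start. Letters and the low WT pair did not go together in every gene. The windows of Mal, Cldn11, Cntn2, Ugt8a, Aspa, Gjc3, Gpr37 and Nkx6-2, which all had that pair, held neither kind. A link between letters and that pair was not tested.

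Other genes of the pathway were read in the same way. Of 30 further genes listed for myelin 1 rose, none fell and 23 had log2 fold changes above 0, with a median of 0.084. The most abundant of them, Kif5a, is a kinesin chiefly of neurons, at 2264.9 ± 178.4 CPM in Nr2f1 het and 2354.2 ± 42.3 CPM in WT (SD, n = 4 each). Over all genes 2.62% rose and 47.9% were above 0, so 1 call in a list of this length is near the background, and the same holds for the single calls among receptors and sphingolipid enzymes below. WT libraries 1 and 3 were both below WT libraries 2 and 4 for 27 of the 30, against 21.2% of all genes. For the difference between mixes 13 had an unadjusted p below 0.05 (edgeR), against 5.12% of all genes. The gene that rose was Cd9, a tetraspanin of myelin and of many other cells, with 36.3, 36.1, 32.2 and 33.9 CPM in Nr2f1 het libraries and 23.0, 27.5, 22.3 and 30.0 CPM in WT libraries. Every Nr2f1 het value of Cd9 was above every WT value, a 1.34-fold difference (edgeR adjusted p = 0.0393). Cd9 kept its call in 9 of 22 alternative settings and lost it without any single library other than WT 4, at adjusted p-values of 0.0639 to 0.11. With the choroid plexus and ependymal scores, each a mean log2 CPM of markers, as covariates its log2 fold change of 0.42 became 0.17 and 0.034, neither of them called. The choroid plexus score was 1.15 to 1.38 in Nr2f1 het and -3.44 to 0.33 in WT. For the ependymal score the values were 0.47 to 1.07 in Nr2f1 het and -1.36 to -0.14 in WT. Neither score overlapped between genotypes, so these fits cannot tell score from genotype.

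Precursor genes other than the 32 gave no calls, with 3 at an unadjusted p below 0.05 (edgeR), against 17.2% of all genes. Of 18 tested, 10 had log2 fold changes above 0 (47.9% of all genes), and the median was 0.019. WT libraries 1 and 3 were set apart in 6, against 21.2% of all genes. Tmem163, a zinc transporter, had the lowest p, with 10.4 ± 0.92 CPM in Nr2f1 het and 8.44 ± 0.718 CPM in WT (SD, n = 4 each; edgeR adjusted p = 0.0732). Neu4, a sialidase, followed with 15.3 ± 0.693 CPM in Nr2f1 het and 16.8 ± 1.15 CPM in WT (SD, n = 4 each; edgeR adjusted p = 0.266). Of 15 other transcription factors of the lineage none was called, 2 had an unadjusted p below 0.05 (edgeR), 10 were above 0 and 2 showed the WT split. The last 3 shares over all genes were 17.2%, 47.9% and 21.2%, in that order. The Wnt effector Tcf7l2, also a marker of thalamic neurons, averaged 6.05 ± 1.76 CPM in Nr2f1 het and 3.85 ± 0.271 CPM in WT (SD, n = 4 each; edgeR adjusted p = 0.0833). Sox2, a factor of neural stem cells and glia, averaged 30.1 ± 2.68 CPM in Nr2f1 het and 26.2 ± 1.71 CPM in WT (SD, n = 4 each; edgeR adjusted p = 0.138).

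Among 31 ligands and receptors that act on the lineage, 1 rose, none fell and 16 were above 0. It was Fgfr2, a fibroblast growth factor receptor of oligodendrocytes and astrocytes, with 54.7, 55.5, 52.4 and 51.8 CPM in Nr2f1 het libraries and 39.4, 46.8, 41.7 and 46.1 CPM in WT libraries. The groups did not overlap, and the difference was 1.23-fold (edgeR adjusted p = 0.013). Fgfr2 kept its call in 16 of 22 alternative settings. The adjusted p was 0.0547 without WT library 3, 0.0978 without WT libraries 1 and 3, 0.244 in even-numbered libraries and 1.0 with spike-in scaling. With the choroid plexus and ependymal scores as covariates its log2 fold change of 0.30 became 0.13 and 0.075, with edgeR adjusted p-values of 0.729 and 0.97. As above, fits with either score cannot tell score from genotype. Of 24 sphingolipid enzymes 1 rose, none fell and 16 were above 0. It was Sgms2, a sphingomyelin synthase of the plasma membrane, with 9.31, 11, 9.54 and 11.2 CPM in Nr2f1 het libraries and 3.35, 5.96, 3.94 and 7.16 CPM in WT libraries. The groups did not overlap, and the difference was 1.99-fold (edgeR adjusted p = 0.0444). Sgms2 kept its call in 12 of 22 alternative settings. Among these were even-numbered libraries (edgeR adjusted p = 0.0404) and the fit without WT libraries 1 and 3 (edgeR adjusted p = 0.0264). Leaving out any single library but WT 4 raised the adjusted p to between 0.0546 and 0.111. With the same 2 scores the log2 fold change of Sgms2, 0.99, became 0.31 and 0.028, neither of them called.

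Genes for cholesterol, the main lipid of myelin, gave no calls and had similar medians in both mixes. An unadjusted p below 0.05 (edgeR) was reached by 5, against 17.2% of all genes. Of 21 tested, 17 had log2 fold changes above 0, and the median was 0.091 in odd-numbered and 0.08 in even-numbered libraries. Genes of the node and paranode, where myelin meets the axon, pointed the other way. This list holds axonal, glial and matrix genes, and Nfasc, Hapln2 and Tnr are also in the lists above. Of 20 tested, 2 were above 0, against 47.9% of all genes, none was called and the median was -0.076. At an unadjusted p below 0.05 (edgeR) 8 passed, against 17.2% of all genes. The neuronal markers given below also had a median below 0, at -0.11, so the shift was not particular to this list. Cntnap1 (Caspr), of the paranodal junction, averaged 323.4 ± 11.2 CPM in Nr2f1 het and 353.0 ± 7.02 CPM in WT (SD, n = 4 each; edgeR adjusted p = 0.0649). The potassium channel Kcna1, of the juxtaparanode, averaged 222.6 ± 10.7 CPM in Nr2f1 het and 242.1 ± 3.05 CPM in WT (SD, n = 4 each; edgeR adjusted p = 0.10).

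Markers of some other cell types differed between genotypes and between the pairs of WT libraries. The 12 choroid plexus markers summed to 4225.7, 4645.2, 4195.7 and 4109.0 CPM in Nr2f1 het libraries and 84.5, 1446.0, 446.3 and 2117.3 CPM in WT libraries. All 12 were higher on average in Nr2f1 het, and none passed after adjustment while 11 had an unadjusted p below 0.05 (edgeR). WT libraries 1 and 3 were both below WT libraries 2 and 4 for all 12. Over all genes 17.2% had such a p and 21.2% had that split. The defining marker Ttr, transthyretin, had 3885.3 ± 218.3 CPM in Nr2f1 het and 895.5 ± 840.6 CPM in WT (SD, n = 4 each). The 6 ependymal markers summed to 29.8 to 45.3 CPM in Nr2f1 het and 10.4 to 20.7 CPM in WT, and 4 of the 6 rose. The 9 markers of meningeal fibroblasts summed to 329.8 to 393.7 CPM in Nr2f1 het and 98.8 to 248.5 CPM in WT. None of them was called, 5 had an unadjusted p below 0.05 (edgeR) and 9 of 9 were above 0. In every library the largest part of that sum was Igf2, at 229.2 to 271.0 CPM in Nr2f1 het and 43.1 to 156.4 CPM in WT. Igf2 was also lower in WT libraries 1 and 3 than in WT libraries 2 and 4. Whether the sums stay apart without Igf2 was not tested, so their separation may not hold for the whole list. Of 10 striatal markers 10 were above 0 and 1 rose, with sums of 356.2 to 497.6 CPM in Nr2f1 het and 340.7 to 352.4 CPM in WT. Of 9 thalamic markers tested 8 were above 0 and 1 rose, with sums of 168.6 to 227.7 CPM in Nr2f1 het and 150.6 to 180.8 CPM in WT.

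The 9 neuronal markers went the other way. They summed to 6088.1 to 6631.0 CPM in Nr2f1 het and 6823.0 to 7319.1 CPM in WT, and 2 of the 9 fell while 1 was above 0. The highest of those sums were in WT libraries 3 and 1, the libraries with the lowest myelin protein sums. The 10 astrocyte markers were mixed, with 5 above 0, a median log2 fold change of -0.00064 and none called. An unadjusted p below 0.05 (edgeR) was reached by 5, against 17.2% of all genes. The 10 markers summed to 4987.0 to 5270.5 CPM in Nr2f1 het and 5325.9 to 5604.3 CPM in WT. Most of that sum was Slc1a2, at 3190.5 ± 76.2 CPM in Nr2f1 het and 3509.1 ± 124.1 CPM in WT (SD, n = 4 each). Sums of the 8 microglial, 8 endothelial and 8 mural markers overlapped between genotypes, and 1 mural marker, Acta2, rose. Schwann cell markers, which would mark myelin of peripheral nerve, were low, at 12.3 to 14.8 CPM in Nr2f1 het and 12.2 to 14.7 CPM in WT, with Pmp2 at 0 in some libraries. With a choroid plexus score as a covariate the median log2 fold change of the 32 genes was -0.186, and with an ependymal score it was -0.331. No member passed in either fit, and both scores separated the genotypes without overlap, so neither fit can tell score from genotype. The part of these cell types in the myelin values was not tested.

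**Figure D5:**
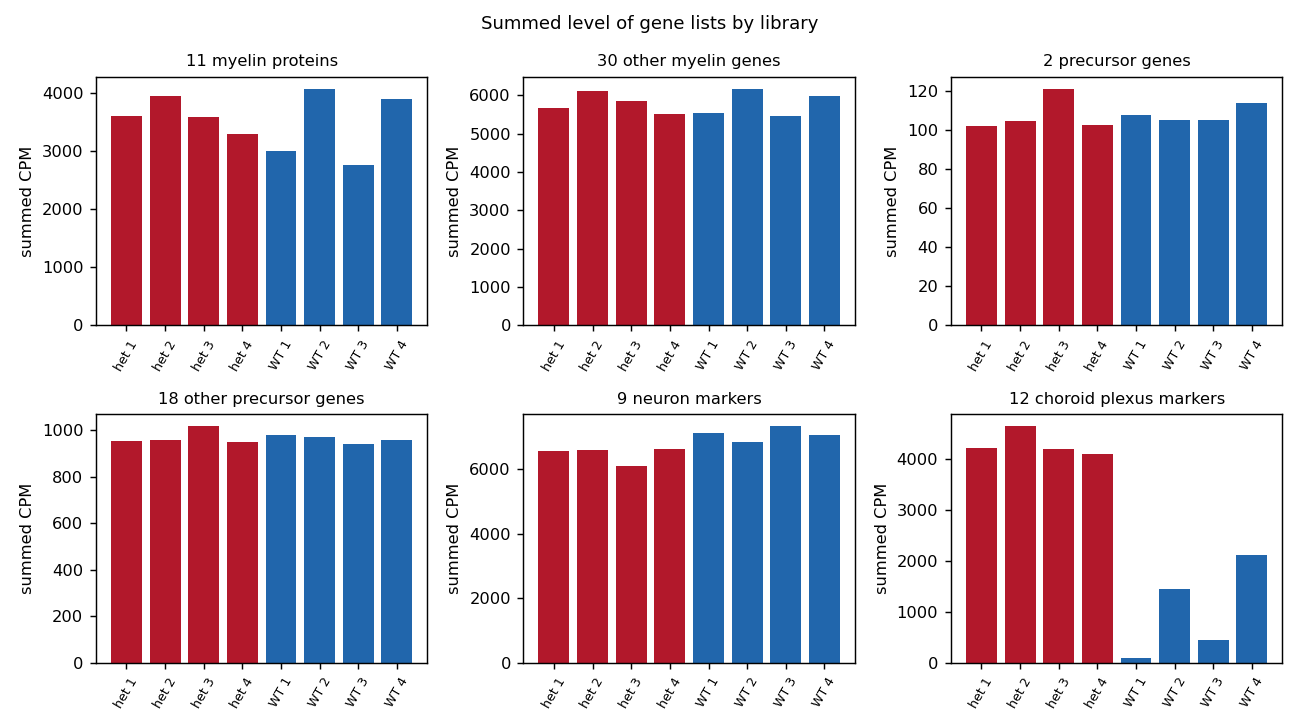
Summed CPM in each library, Nr2f1 het on the left and WT on the right, for the 11 myelin proteins, 30 other myelin genes, 2 precursor genes, 18 other precursor genes, 9 neuron markers and 12 choroid plexus markers. The largest part of the other myelin sum is Kif5a, a gene chiefly of neurons. Myelin protein and choroid plexus sums are lowest in WT libraries 1 and 3, the precursor sums are nearly level, and the neuron sums are lower in Nr2f1 het.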

How the data were processed

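The authors deposited raw read counts per Ensembl gene for 8 hippocampal libraries, 4 of each genotype. Per the labels' protocols, complementary DNA was made with a NuGEN Ovation kit, which does not mark strand, and ERCC spike-in RNA was added as Mix 1 or Mix 2. The submitters' processing notes name the builds mm9 and NCBIM37 and the tools STAR 2.4.2a, HTSeq, FastQC and DESeq2. Settings, annotation and strandedness of counting were not given in the sources used here. Rows of the 92 spike-ins, 0.0431% to 0.0787% of the counts, stayed out of library sizes and tests. Symbols came from an annotation on GRCm38 and matched 32620 of 37310 gene identifiers, with all 32 members among them.

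Counts were TMM-normalised and filtered with filterByExpr (minimum count 10, total 15). Genotypes were compared over all 17913 genes with the two-sided quasi-likelihood F test of edgeR 4.0.16 in R 4.3.3 (robust, version 4 dispersion estimate) with Benjamini-Hochberg adjustment at 0.05. SE was taken as the absolute log2 fold change over the square root of F. DESeq2 1.42.0, voom of limma 3.58.1, other scalings and filters, each library left out, each mix alone, the mix, the replicate number, a choroid plexus score and an ependymal score were the alternatives. The edgeR step was tested on simulated data. The members, lists, alternatives and rules were chosen with earlier results of these data known. Values in every library are given for the 3 genes of lowest p on each side of 0, the most abundant gene of each stage, and Pdgfra and Cspg4. Pathway lists name the called genes or those with the lowest p, and other genes named were chosen after their values were seen. Some genes that these rules chose are not reported here. Each library came from a separate animal, and no pair of libraries was a duplicate (chi-square per degree of freedom 7.42 to 25.0). Limits on a count of 0 cover counting error only. Several genes share exonic bases with a neighbour on the opposite strand (Cnp, Ermn, Bcas1, Ndrg1, Olig1, Gpr17, Nkx6-2 and Tspan2), whose reads cannot be told apart.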

Additional observations from a re-analysis of the deposited data

How the results depend on the processing

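No member passed the test as reported (0 of 32), and none passed under the other scalings, filters, tests or covariates. The exceptions were the odd-numbered libraries alone, with 11 called, and leaving out single libraries, with 0 to 1 called. The median log2 fold change of the 32 was 0.312 in odd-numbered libraries, -0.186 with the choroid plexus score, -0.331 with the ependymal score, -0.082 in even-numbered libraries, -0.083 without WT libraries 1 and 3, and 0.007 to 0.171 with single libraries left out. Over all genes the 535 calls became 286 with spike-in scaling, 170 without WT libraries 1 and 3, 78 in even-numbered libraries, 1 with the choroid plexus score, 0 with the ependymal score and 1200 with the DESeq2 Wald test. Leaving out single libraries gave 171 (without WT 3) to 767 (without WT 4). Nr2f1 lost its call with spike-in scaling (-0.70, edgeR adjusted p = 0.209) and in the fit with an ependymal score (-0.55, edgeR adjusted p = 0.448). Spike-in scaling rested on only 5 of the 92 spike-ins, those read from these data as equal in both mixes. Both the choroid plexus and the ependymal score separated the genotypes without overlap, so fits with them cannot tell score from genotype.

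Of 704 member values over 22 settings, 133 changed sign. With the choroid plexus score these were Sox10 -0.05, Olig1 -0.059, Myrf -0.2, Bcas1 -0.096, Enpp6 -0.53, Mbp -0.22, Mog -0.16, Mag -0.17, Mobp -0.26, Cnp -0.2, Cldn11 -0.4, Mal -0.32, Ermn -0.2, Opalin -0.16, Ugt8a -0.14, Gal3st1 -0.23, Fa2h -0.18, Aspa -0.19, Gjb1 -0.28, Gjc3 -0.24, Trf -0.12, Plekhb1 -0.15, Gpr37 -0.12 and Ndrg1 -0.073. With the ependymal score they were Sox10 -0.17, Olig1 -0.14, Myrf -0.4, Gpr17 0.086, Bcas1 -0.2, Enpp6 -0.85, Mbp -0.37, Mog -0.31, Mag -0.35, Mobp -0.43, Cnp -0.35, Cldn11 -0.61, Mal -0.48, Ermn -0.39, Opalin -0.3, Ugt8a -0.32, Gal3st1 -0.4, Fa2h -0.39, Aspa -0.22, Gjb1 -0.51, Gjc3 -0.32, Trf -0.36, Plekhb1 -0.25, Gpr37 -0.28 and Ndrg1 -0.17. Without WT libraries 1 and 3 they were Olig1 -0.049, Myrf -0.13, Bcas1 -0.047, Enpp6 -0.28, Mbp -0.14, Mog -0.061, Mag -0.084, Mobp -0.16, Cnp -0.082, Cldn11 -0.26, Mal -0.19, Ermn -0.11, Ugt8a -0.025, Gal3st1 -0.13, Fa2h -0.045, Aspa -0.061, Gjb1 -0.11, Gjc3 -0.15, Plekhb1 -0.12, Gpr37 -0.038 and Ndrg1 -0.014. In even-numbered libraries they were Olig1 -0.092, Myrf -0.098, Pdgfra -0.023, Bcas1 -0.083, Enpp6 -0.25, Mbp -0.15, Mog -0.036, Mag -0.057, Mobp -0.15, Cnp -0.052, Cldn11 -0.2, Mal -0.18, Ermn -0.081, Gal3st1 -0.11, Aspa -0.026, Gjb1 -0.025, Gjc3 -0.17, Plekhb1 -0.12 and Ndrg1 -0.02. In odd-numbered libraries they were Olig2 0.098, Nkx6-2 0.027, Gpr17 0.05, Tspan2 0.11 and Cntn2 0.071. Upper quartile scaling gave Olig2 0.0074 and Cntn2 0.0055, spike-in scaling Olig2 0.031, Gpr17 0.0074 and Cntn2 0.026, and no filter Cldn11 -0.0019 and Gjc3 -0.002. With single libraries left out, the ranges that crossed 0 were Olig2 -0.024 to 0.05, Myrf -0.03 to 0.15, Pdgfra -0.005 to 0.086, Gpr17 -0.12 to 0.0039, Enpp6 -0.1 to 0.25, Mbp -0.021 to 0.18, Mobp -0.019 to 0.18, Cldn11 -0.1 to 0.11, Mal -0.04 to 0.16, Tspan2 -0.11 to 0.045, Cntn2 -0.065 to 0.063, Gal3st1 -0.03 to 0.13, Aspa -0.0036 to 0.19, Gjc3 -0.056 to 0.073 and Plekhb1 -0.049 to 0.099. The causes were not tested.

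Same-numbered libraries did not deviate together (correlations -0.088 to 0.025), and the number marks no shared litter or day in the labels, though same-numbered libraries also share a spike-in mix. With the replicate block 406 genes and 0 members were called, the median of the members was 0.09, and 0 of 8 libraries correlated best with its own number. Depth limits the genes of few counts, such as Enpp6 with 238 to 571 counts per library, more than Mbp with 114439 to 191746.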
